A study of Sus scrofa with 4 samples.

Results

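Fatty acid synthesis and desaturation was followed through 10 genes that make and modify long-chain fatty acids: ACLY, ACACA, FASN, ME1, ELOVL5, ELOVL6, SCD, FADS1, FADS2 and the transcription factor gene SREBF1. They were taken by name from the array's annotation, each through its brightest probeset that carried 1 gene symbol, and 8 of the 10 were found among 6765 genes with such a probeset. No probeset was named for ACLY or ELOVL5, and both were not analysed here. The samples were dermal fibroblasts grown from biopsies of wounds on the backs of 2 Duroc pigs, 20 weeks after wounding, an in vitro model of cutaneous fibrosis. There were 2 cultures from deep wounds and 2 from shallow wounds, 1 of each depth per pig, with the pig read from the partner numbers in the sample titles and the order of listing. All were taken to confluence in the same serum-containing medium before total RNA was hybridized to an Affymetrix porcine array, and neither genotype, drug treatment nor age was given in the labels. Values are MAS5 signals in intensity units, 1 per probeset and array, and log2 differences are deep minus shallow.

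Cells build palmitate in the cytosol from acetyl-CoA: ATP citrate lyase (ACLY) releases acetyl-CoA from citrate, acetyl-CoA carboxylase (ACACA) turns it into malonyl-CoA, and fatty acid synthase (FASN) extends the chain with NADPH that malic enzyme (ME1) helps to supply. Elongases of the endoplasmic reticulum (ELOVL5, ELOVL6) lengthen fatty acid chains. Stearoyl-CoA desaturase (SCD) and the front-end desaturases FADS1 and FADS2 place double bonds. Sterol regulatory element-binding protein 1, the product of SREBF1, activates most of these genes, and its relative SREBP-2 mainly drives cholesterol synthesis. In skin, adipocytes and sebocytes are the cells best known for this pathway, and fibroblasts run it at a lower level for their membranes.

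The arrays differed in ways that bear on the genes below. The ratio of 3′ to 5′ actin signal, which rises with RNA degradation or incomplete labelling, was 3.28 and 6.10 in deep cultures (pig 1, then pig 2, as in all pairs of values below) and 1.96 and 2.41 in shallow cultures. Mean signal of the hybridization controls was 3356 and 7652 in deep, and 2446 and 2817 in shallow. That of the 28S rRNA probesets was 3462 and 7621 in deep, and 1351 and 1836 in shallow. All 3 measures were highest on the pig 2 deep array, and their part in the genes below was not tested. All 11 measured fibroblast markers read higher on each deep array than on either shallow array, beside 23.2% of all tested probesets. Their summed signal was 49589 and 71580 in deep, against 30105 and 35671 in shallow, and COL1A2 and DCN were among them. The summed signal of 12 epithelial markers was 391 and 260 on the deep arrays, and 6385 and 316 on the shallow arrays, so it stood out on 1 array, shallow of pig 1. There CDH1 read 1084 and EPCAM 979, while neither passed 27.3 on any other array. The 18 measured cell-cycle markers summed to 2204 and 2687 in deep, and to 17468 and 5273 in shallow. All 17 tested ones read lower on each deep array than on either shallow array, beside 25.5% of all tested probesets. Their median log2 difference was -2.15, and 16 had an unadjusted p under 0.05 (limma), beside 13.9% of all tested probesets. After adjustment 1 of the 17 passed, beside 0.340% of all tested probesets. It was CENPF of the kinetochore, which fell (log2 difference -3.82 ± 0.55, SE, limma, adjusted p = 0.0453). The 9.45 of CENPF on the pig 2 deep array was under the controls for absent transcripts. TOP2A read 174 and 351 in deep and 1979 and 606 in shallow. Of 9 adipocyte markers 2 passed the filter on dim probesets described below, and the summed signal of all 9 was 211 and 261 in deep and 217 and 179 in shallow; LEP read 45.6 and 61.2 in deep and 48.7 and 37.9 in shallow, and ADIPOQ read 9.08 and 35.7 in deep, and 11.4 and 18.8 in shallow. CEBPA, the other adipocyte marker tested, read 66.4 and 111 in deep and 26.6 and 48.2 in shallow (log2 difference 1.26 ± 0.40, SE; limma, adjusted p = 0.224). Dimmer adipocyte markers, FABP4 and PPARG, peaked on the pig 1 shallow array. FABP4 read 23.0 and 2.29 in deep and 35.1 and 16.5 in shallow, and PPARG read 49.3 there and stayed under the absent-transcript controls on the other 3 arrays. Of the sebocyte markers 2 were measured, FADS6 and PLIN2, and their summed signal was 1017 and 798 in deep and 1233 and 814 in shallow. No probeset was named for MC5R, AWAT2, KRT14, PLIN1, PDGFRA or MKI67. Of 8 endothelial markers 4 stayed under the controls for absent transcripts on every array, CDH5 among them, while PECAM1 read 223 and 281 in deep and 601 and 152 in shallow. CLDN5, the other endothelial marker tested, read 33.6 and 16.2 in deep and 114 and 56.6 in shallow (log2 difference -1.78 ± 0.43, SE; limma, adjusted p = 0.131). VWF, too dim to test, read 41.6 and 25.6 in deep and 14.2 and 21.4 in shallow. The leukocyte marker PTPRC read 8.94 and 23.2 in deep and 9.64 and 18.6 in shallow. Fewer cells of a type and less RNA per cell cannot be told apart in such bulk samples.

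None of the genes passed the test for a difference between deep and shallow cultures. FASN, ELOVL6, SCD and FADS1 were lower on the deep array in pig 1, and their pig 2 differences were between -0.13 and 0.24 on the log2 scale. ME1 and FADS2 read higher on the deep array in both pigs, by a mean of 1.44-fold and 1.76-fold. ACACA and SREBF1 lay around or under the level of controls for absent transcripts. Of the 8 genes 6 passed a filter on dim probesets (a mean log2 signal that corresponds to a signal of at least 27.1). By limma with pig as a block, 0 of these 6 had an adjusted p under 0.05, nor an unadjusted p under 0.05. Over all 14399 probesets tested, 0.340% passed the adjusted threshold and 13.9% had an unadjusted p under 0.05. The adjusted p-values of the 6 genes ran from 0.376 to 0.789.

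**Figure D1:**
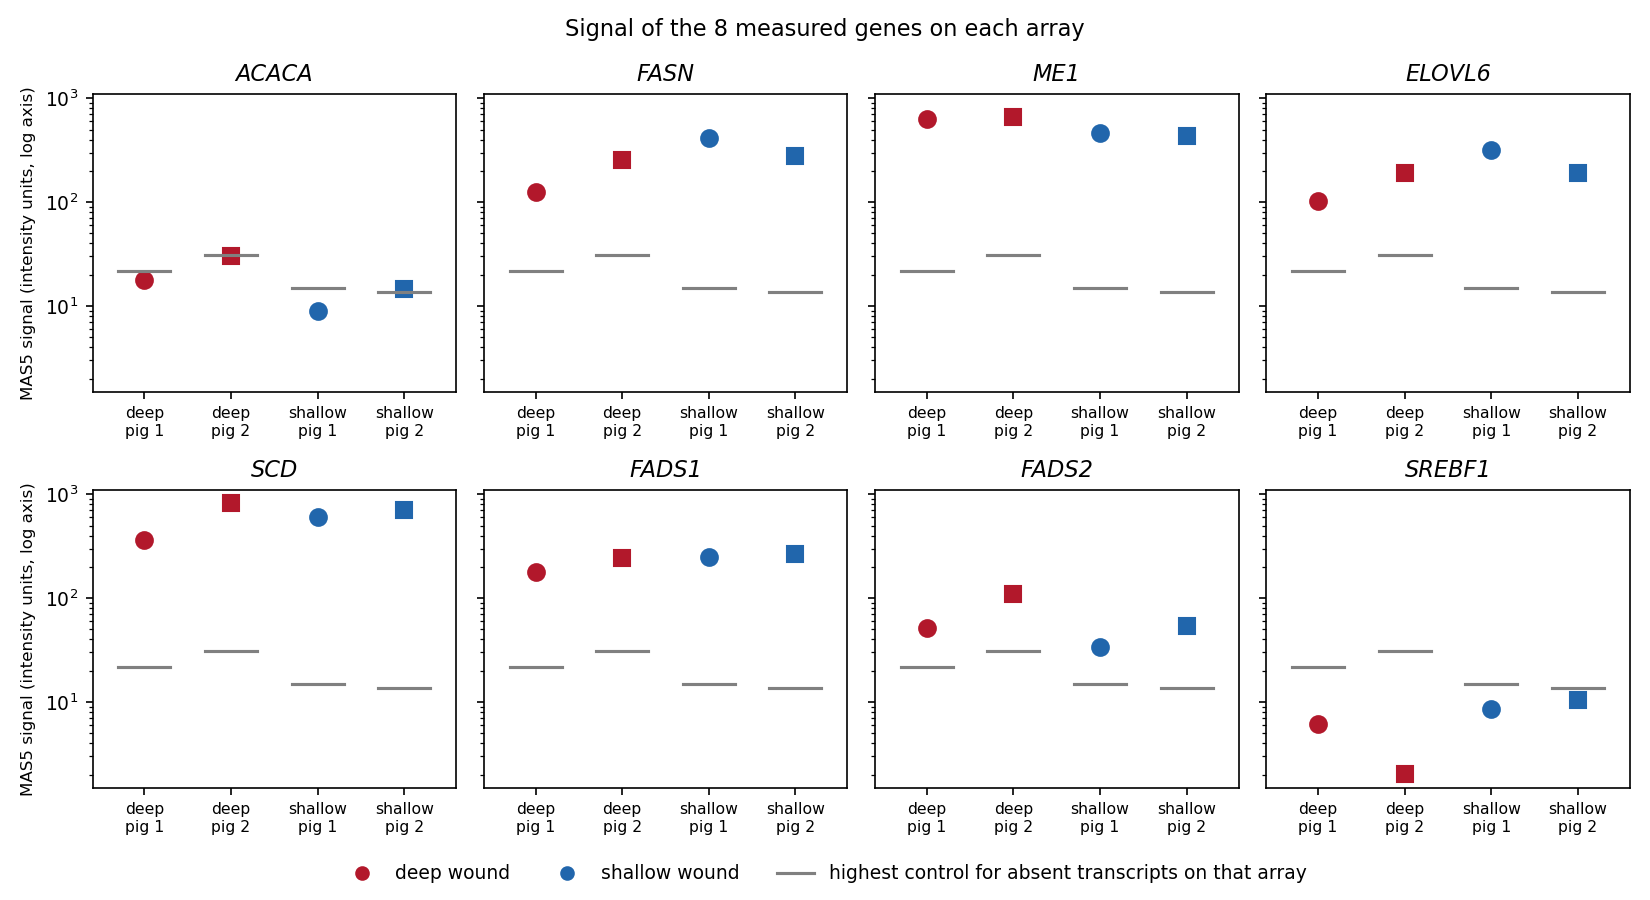
Signal of the 8 measured genes on each array (MAS5 intensity units, log axis; 1 point per array, deep arrays in red on the left, shallow arrays in blue on the right). The grey line is the highest of 23 controls for absent transcripts on that array; ACACA and SREBF1 lie around or under it, and the pig 1 deep array is the lowest point for FASN, ELOVL6, SCD and FADS1.

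ACACA, which catalyses the committed step, read 17.7 and 30.0 in deep, and 8.88 and 14.6 in shallow. The highest absent-transcript control on the same arrays was 21.8 and 30.9 in deep, and 14.8 and 13.6 in shallow. ACACA therefore exceeded it on the pig 2 shallow array alone, and no fold is given. Its second probeset was dimmer, at 2.97 and 2.77 in deep and 1.85 and 2.26 in shallow.

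FASN, the multi-domain synthase that releases palmitate, read 126 and 255 in deep (190 ± 91.4, SD, n = 2) and 411 and 276 in shallow (344 ± 95.4, SD, n = 2). Both deep arrays were under both shallow arrays, but the distance was set by pig 1, where FASN was 3.28-fold lower in deep, against 1.08-fold lower in pig 2. The mean log2 difference was -0.91 ± 0.41 (SE), with a 95% interval of -1.86 to 0.03 (limma, adjusted p = 0.376). In pig 1 2.97% of all tested probesets had a difference at or below that of FASN, and in pig 2 44.2% had. The gap between the deep arrays of the pigs, 1.02 on the log2 scale, was larger than the mean difference between depths.

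Single arrays decided the size of this difference. Leaving out pig 1 deep, the log2 difference of FASN was -0.40, and leaving out pig 2 deep gave -1.43. Leaving out the pig 1 shallow array, the one with high epithelial and cell-cycle signal, gave -0.63. Leaving out the pig 2 shallow array gave -1.20. These fits of 3 arrays had no pig block, and each takes the lone array of 1 depth to vary like those of the other. The part of the epithelial, cell-cycle and actin-ratio differences in the FASN values was not tested.

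The FASN probesets disagreed. The second brightest, also tested, read 54.8 and 42.4 in deep, and 34.1 and 72.0 in shallow. It was highest on the pig 2 shallow array and lowest on that of pig 1, where the brightest was highest, and its difference on the log2 scale was -0.04 ± 0.49 (SE; limma, adjusted p = 0.982). The next probeset read 27.6 and 17.9 in deep and 20.3 and 42.3 in shallow, and the dimmest was above the absent controls only on the pig 2 shallow array. Averaging the passing probesets moved the FASN difference to -0.48.

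ME1, the cytosolic malic enzyme that reduces NADP while turning malate into pyruvate, had replicates close together. Its signal was 628 and 660 in deep (644 ± 22.9, SD, n = 2) and 464 and 430 in shallow (447 ± 23.8, SD, n = 2). Deep was higher by 1.35-fold in pig 1 and 1.53-fold in pig 2, and the depths did not overlap. The log2 difference was 0.53 ± 0.27 (SE), with a 95% interval of -0.10 to 1.15 (limma, adjusted p = 0.443). It stayed between 0.47 and 0.58 with any 1 array left out. The second ME1 probeset gave 281 and 260 in deep, against 225 and 209 in shallow, again without overlap and with 0.32 ± 0.29 as its log2 difference (SE; limma, adjusted p = 0.690). Between the pigs at the same depth, ME1 differed by 0.07 (deep) and -0.11 (shallow) on the log2 scale, pig 2 minus pig 1, so the depth difference exceeded the difference between pigs.

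**Figure D2:**
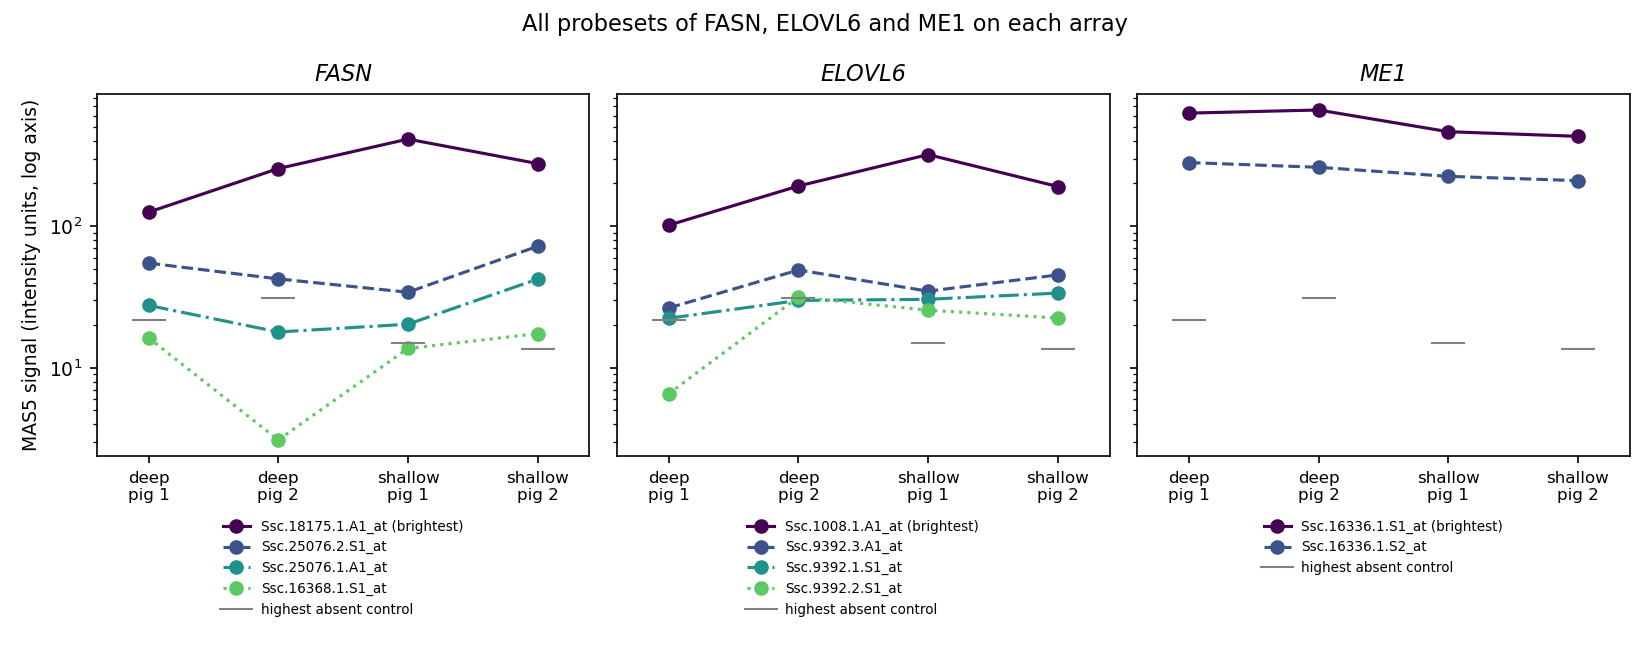
All probesets of FASN, ELOVL6 and ME1 across the 4 arrays (MAS5 intensity units, log axis; deep arrays left, shallow arrays right; grey marks are the highest absent-transcript control of each array). Both ME1 probesets are higher on each deep array than on either shallow array, the brightest FASN probeset peaks on the pig 1 shallow array where the second brightest is at its minimum of 34.1, and all 4 ELOVL6 probesets are lowest on the pig 1 deep array.

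ELOVL6, the elongase that takes palmitate to stearate, read 102 and 192 in deep (147 ± 63.9, SD, n = 2), and 320 and 190 in shallow (255 ± 91.5, SD, n = 2). The shallow array of pig 1 was highest and the pig 1 deep array lowest, as for the brightest FASN probeset, with both arrays of pig 2 in between. In pig 1 ELOVL6 was 3.15-fold lower in deep, while the arrays of pig 2 differed by 0.01 on the log2 scale.

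Over both pigs the log2 difference of ELOVL6 was -0.82 ± 0.43 (SE), with a 95% interval of -1.80 to 0.16 (limma, adjusted p = 0.445). It ranged from -1.28 with pig 2 deep left out to -0.36 with pig 1 deep left out, and was -0.45 and -1.20 without the shallow arrays of pig 1 and pig 2. The other 3 ELOVL6 probesets were dim, between 6.58 and 49.0, and like the brightest they had their lowest value on the pig 1 deep array. Those of them that were tested differed by -0.14 ± 0.45 and -0.31 ± 0.48 (SE) on the log2 scale, so the size seen with the brightest probeset was not shared. The mean over the passing probesets was -0.42.

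SCD, the desaturase that makes oleate from stearate, differed in opposite directions in the pigs. Its signal was 360 and 824 in deep (592 ± 328, SD, n = 2), and 599 and 700 in shallow (649 ± 71.3, SD, n = 2). Both shallow arrays lay between the deep ones. Deep was 1.66-fold lower in pig 1 and 1.18-fold higher in pig 2, with a mean log2 difference of -0.25 ± 0.32 (SE; 95% interval -0.98 to 0.49, limma, adjusted p = 0.789). Leaving out pig 1 deep, the sign turned, to 0.35, and leaving out pig 2 deep gave -0.85.

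FADS1 and FADS2, neighbouring genes for the delta-5 and delta-6 desaturases that make polyunsaturated fatty acids, had differences of opposite sign. FADS1 read 177 and 241 in deep (209 ± 45.4, SD, n = 2), and 251 and 264 in shallow (257 ± 9.37, SD, n = 2). The depths did not overlap, deep was 1.42-fold lower in pig 1 and 1.09-fold lower in pig 2, and the log2 difference was -0.32 ± 0.30 (SE; 95% interval -1.01 to 0.38, limma, adjusted p = 0.702). It was -0.09 with pig 1 deep left out and -0.54 with pig 2 deep left out.

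FADS2 read 51.6 and 111 in deep (81.2 ± 41.9, SD, n = 2), and 34.1 and 54.0 in shallow (44.1 ± 14.1, SD, n = 2). It was above the absent-transcript controls on every array and was higher in deep by 1.51-fold in pig 1 and 2.05-fold in pig 2. The depths still overlapped, because the pig 1 deep array was under the pig 2 shallow array. The log2 difference was 0.82 ± 0.40 (SE), with a 95% interval of -0.11 to 1.75 (limma, adjusted p = 0.425), and it lay between 0.27 with pig 2 deep left out and 1.37 with pig 1 deep left out. Without the shallow arrays of pig 1 and pig 2 it was 0.49 and 1.15. With the actin ratio as a covariate in place of the pig the sign turned, to -0.57 (limma, adjusted p = 0.9999). The ratio was higher on both deep arrays, so that fit separates it poorly from depth. The second FADS2 probeset was above the absent controls on the pig 1 deep array alone.

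SREBF1, the regulator of the pathway, had a single probeset that stayed under the highest absent-transcript control on every array. It read 6.20 and 2.02 in deep and 8.60 and 10.5 in shallow. SREBF1 was therefore not above background in either depth, and no fold is given.

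**Figure D3:**
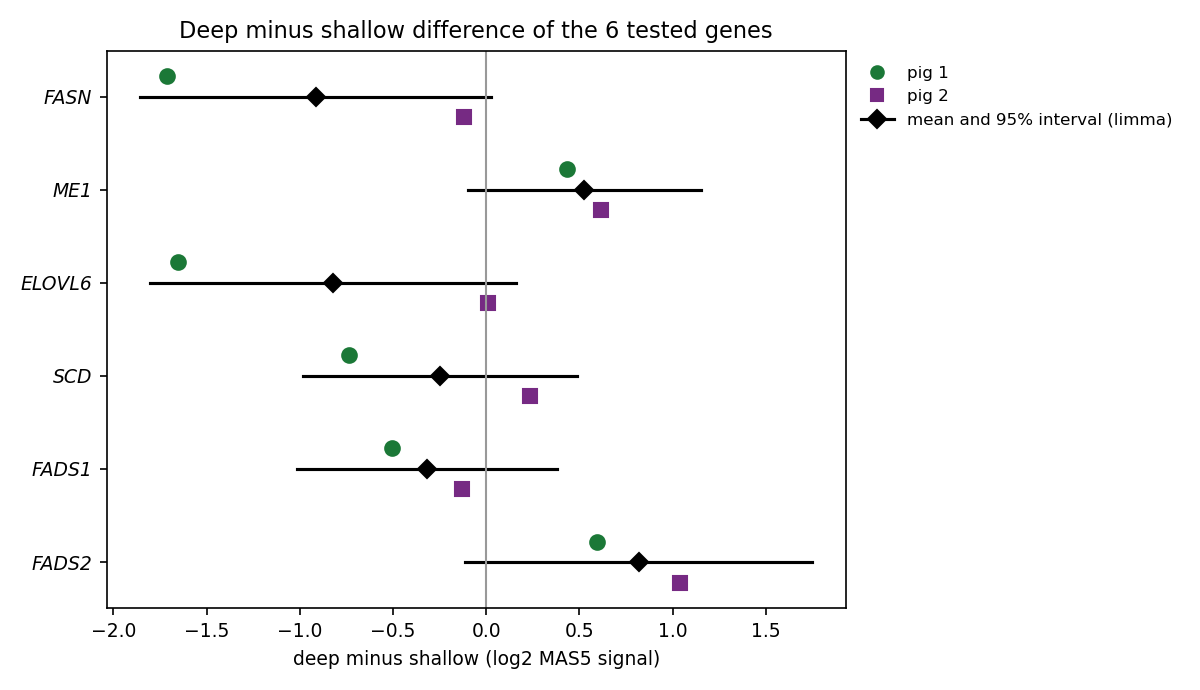
Deep minus shallow difference (log2 MAS5 signal) of the 6 tested genes in pig 1 (green circles), in pig 2 (purple squares) and as the limma mean with its 95% interval (black). Every interval includes 0; FASN and ELOVL6 have their pig 1 points near -1.7 and their pig 2 points near 0, and ME1 and FADS2 are above 0 in both pigs.

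Across the 6 tested genes, 2 were higher in deep in both pigs, 2 were lower in both and 2 went opposite ways. Both deep arrays were above both shallow arrays for 1 gene (ME1) and below them for 2 (FASN and FADS1), beside 23.2% and 25.5% of all tested probesets, so these shares give no result particular to the pathway. The median log2 difference of the 6 genes was -0.28, and that of all tested probesets was -0.02. By pig, the medians were -0.62 in pig 1 and 0.12 in pig 2 for the 6 genes, and 0.01 and -0.03 for all tested probesets. The deep array of pig 1 was the lowest of the 4 for FASN, ELOVL6, SCD and FADS1, 4 of the 6. It was the lowest for 20.8% of all tested probesets, a count made after the values had been seen. The same array was the lowest for 13 of the 17 tested cell-cycle markers and for 0 of the 11 fibroblast markers. Without that array the median of the 6 genes was 0.13, and leaving out pig 2 deep gave -0.69. With 1 array for each pig and depth, whether the depth difference itself differed between the pigs could not be tested.

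No other step of synthesis or elongation passed the test. Of 25 listed genes 14 were on the array and 13 were tested, and 0 rose and 0 fell (limma, all probesets). An unadjusted p under 0.05 was seen for 1 of the 13, beside 13.9% of all tested probesets. Both deep arrays were above both shallow arrays for 3 of the 13 and below them for 3 (23.2% and 25.5% of all tested probesets), and the median log2 difference was 0.06. HACD4, a hydroxyacyl-CoA dehydratase of the elongation cycle, read 495 and 497 in deep and 277 and 291 in shallow, with a difference of 0.80 ± 0.28 on the log2 scale (SE; limma, adjusted p = 0.252). MID1IP1, which promotes polymerisation of acetyl-CoA carboxylase, read 501 and 992 in deep, and 465 and 376 in shallow. ELOVL1, the elongase of very long saturated chains, read 381 and 531 in deep and 692 and 549 in shallow, a log2 difference of -0.45 ± 0.31 (SE).

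Genes listed around NADPH supply, beside ME1, included some whose enzymes do not make NADPH themselves, such as TALDO1. Of 11 listed 9 were tested and 0 passed in either direction (limma), with a median log2 difference of 0.10. An unadjusted p under 0.05 was seen for 0 of the 9, beside 13.9% of all tested probesets. PGD, the second oxidative enzyme of the pentose phosphate pathway, read 912 and 1115 in deep, and 700 and 708 in shallow (log2 difference 0.52 ± 0.27, SE). TALDO1, the transaldolase of the same pathway, read 3291 and 4531 in deep, and 2820 and 2907 in shallow. The mitochondrial malic enzyme ME3 read 164 and 111 in deep, and 88.7 and 110 in shallow. Both deep arrays were above both shallow arrays for these 3 of the 9 genes, beside 23.2% of all tested probesets, and below them for 2, beside 25.5%. The 2 were IDH1, the cytosolic NADP-dependent isocitrate dehydrogenase, at 565 and 571 in deep and 646 and 685 in shallow, and NNT, the mitochondrial transhydrogenase, at 829 and 741 in deep and 858 and 1010 in shallow.

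Among the tested genes of the lipid lists, the largest differences were in genes that act on or bind acyl chains. Of 14 such listed genes 9 were tested and 0 passed (limma), with a median log2 difference of -0.20. An unadjusted p under 0.05 was seen for 2 of the 9, beside 13.9% of all tested probesets. The acyl-CoA thioesterase ACOT7 read 136 and 105 in deep, and 732 and 322 in shallow, with a difference of -2.02 ± 0.33 on the log2 scale (SE; limma, adjusted p = 0.0616). FABP5, the epidermal fatty acid-binding protein, read 77.3 and 36.2 in deep, and 380 and 91.9 in shallow (-1.82 ± 0.38, SE; limma, adjusted p = 0.0967). Both were highest on the pig 1 shallow array, where the epithelial and cell-cycle markers were also highest, and the part of those markers was not tested. ACSL4, the ligase with a preference for arachidonate, differed the other way (0.65 ± 0.30, SE, on the log2 scale), at 7009 and 11129 in deep and 5263 and 5987 in shallow.

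The regulators of SREBP-1 and of lipogenesis gave no call. Of 27 listed genes 20 were on the array, 19 were tested and 0 passed in either direction (limma), with a median log2 difference of 0.12. An unadjusted p under 0.05 was seen for 0 of the 19, beside 13.9% of all tested probesets. SCAP, the escort protein that carries SREBPs to the Golgi, read 187 and 171 in deep, and 265 and 183 in shallow. RXRA, the partner of the liver X receptors, read 33.7 and 55.8 in deep, and 29.1 and 32.1 in shallow. NFYC, a subunit of the CCAAT-binding factor NF-Y, read 166 and 138 in deep, and 182 and 170 in shallow.

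Genes that put new fatty acids into glycerolipids gave none either. Of 18 listed genes 13 were tested and 0 passed (limma), with a median log2 difference of 0.0042. An unadjusted p under 0.05 was seen for 2 of the 13, beside 13.9% of all tested probesets. CHPT1, which makes phosphatidylcholine from diacylglycerol, read 830 and 715 in deep, and 311 and 521 in shallow (0.94 ± 0.32, SE; limma, adjusted p = 0.247). AGPAT5, a lysophosphatidic acid acyltransferase, read 584 and 372 in deep, and 1056 and 698 in shallow (-0.88 ± 0.27, SE; limma, adjusted p = 0.204). AGPAT2, another such acyltransferase, read 90.2 and 71.2 in deep, and 94.7 and 104 in shallow.

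Cholesterol synthesis, the arm driven by SREBP-2, was measured through 8 of 21 listed genes. None passed (0 rose, 0 fell, limma). An unadjusted p under 0.05 was seen for 3, all lower in deep, beside 13.9% of all tested probesets in either direction. The pig 1 deep array was lowest for 6 of the 8, beside 20.8% of all tested probesets. Both deep arrays were below both shallow arrays for 4 of the 8 and above them for 1 (25.5% and 23.2% of all tested probesets). The 1 was SC5D, at 821 and 837 in deep, and 471 and 686 in shallow. The median log2 difference was -0.50 over both pigs, -0.78 in pig 1 and -0.29 in pig 2. HMGCS1, the cytosolic HMG-CoA synthase, read 337 and 718 in deep, and 1106 and 1020 in shallow (-1.11 ± 0.34, SE; limma, adjusted p = 0.211). SQLE, the squalene epoxidase, read 351 and 715 in deep, and 814 and 907 in shallow, and HSD17B7, a ketosteroid reductase of sterol synthesis, read 110 and 101 in deep, and 193 and 211 in shallow.

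**Figure D4:**
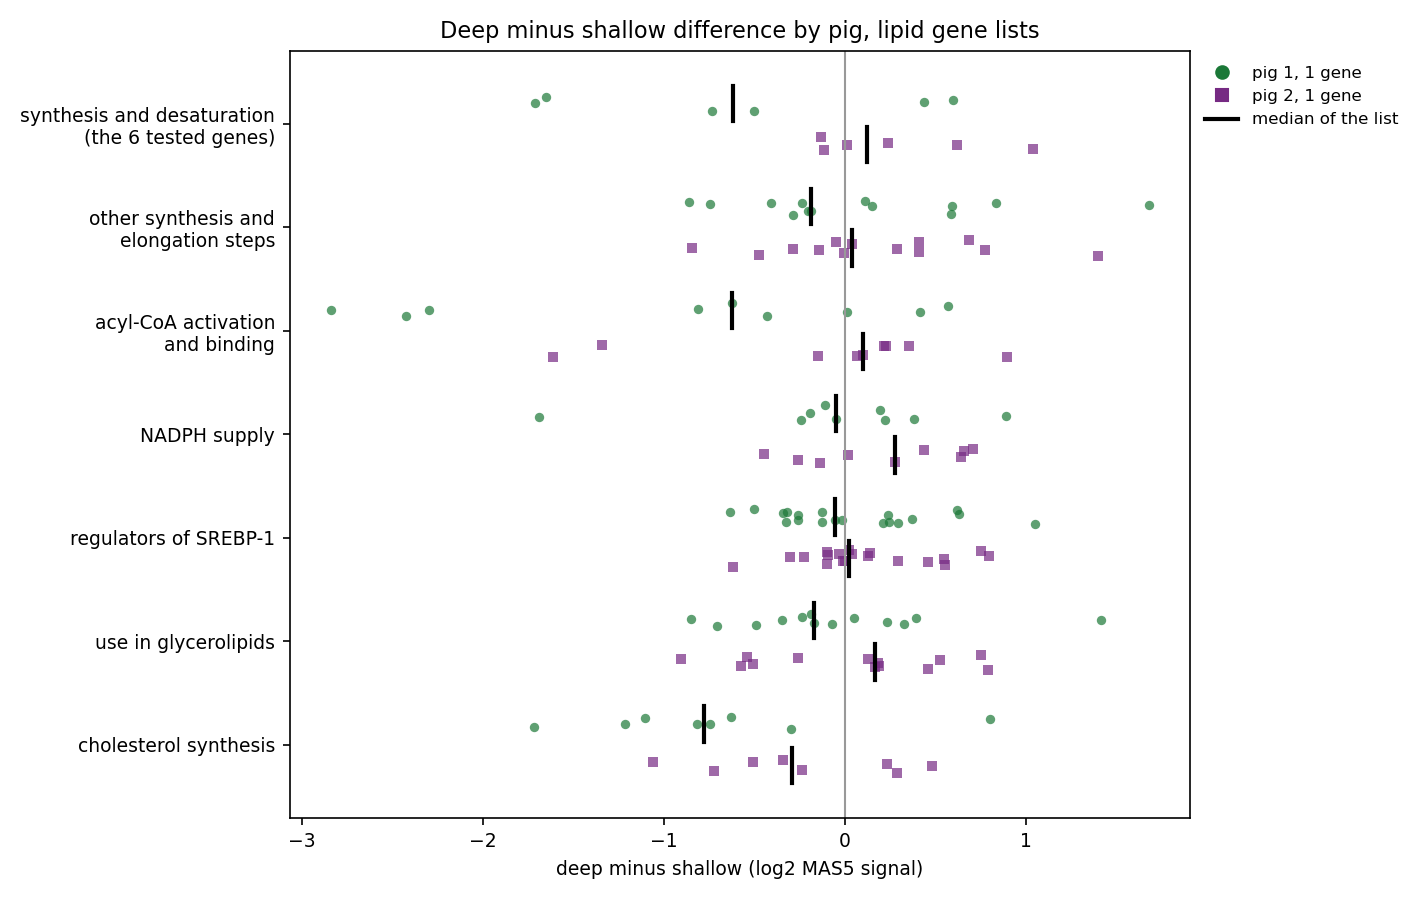
Deep minus shallow difference (log2 MAS5 signal) of every tested gene of the 7 lipid lists, in pig 1 (green circles) and pig 2 (purple squares), with the median of each list and pig as a black bar. The medians of the 6 tested synthesis and desaturation genes are -0.62 in pig 1 and 0.12 in pig 2, and those of the cholesterol genes -0.78 and -0.29, while those of the SREBP-1 regulators lie near 0.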

How the data were processed

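Total RNA of 4 fibroblast cultures was measured on 1 Affymetrix array each. The deposited values are signal intensities on a linear scale, for which the submitters' processing notes name MAS5 and GCOS 1.0. The authors had scaled the arrays: the mean signal with both extreme tails trimmed was 250.1 on each. Scan settings are not given in the sources used here. Precision is limited by the number of arrays, and 23 control probesets for absent transcripts stood in as background.

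Signals under 1 were set to 1 (2547 of 95996) and taken to log2. The 124 control probesets were left out, and probesets at or above the 40th percentile of mean log2 signal were kept (14399 of 23999). Symbols came from the platform annotation (1 symbol for 10069 probesets, several for 198, none for 13732); gene IDs of all 8 genes matched the current gene table. Deep and shallow were compared with limma 3.58.1 in R 4.3.3 (lmFit and eBayes with a mean-variance trend, pig as a block, two-sided). P-values were Benjamini-Hochberg adjusted over all tested probesets, with a threshold of 0.05. The fit was also run on data simulated from its own variance estimates without a pig effect, which does not test those assumptions. Intervals are at 95%. Fits with 1 array left out had no pig block and took the lone array of 1 depth to vary like those of the other. The block follows the study's paired design; the arrays of a pig shared no deviation from the depth means (correlation -0.01 over probesets). No label names separate cultures within a wound, so p-values do not measure the spread between cultures of a wound. Each probeset had 1 residual degree of freedom, beside 6.88 prior degrees of freedom drawn from all tested probesets. The p-values thus rest mostly on a variance shared across the probesets of these arrays. The genes and lists were chosen with earlier results of these data known. Beside the 8 genes, the text names list members past the threshold, up to 3 tested genes per lipid list with the largest difference of the same sign in both pigs, and defining markers. FADS6, PLIN2, CEBPA, FABP4, PPARG, CLDN5, VWF, IDH1, NNT and SC5D fall outside this rule and were named after their values were seen.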

Additional observations from a re-analysis of the deposited data

How the results depend on the processing

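With the replicate block left out, 0 of the 6 tested genes passed (limma), as in the fit with pig as a block; 0 also passed with the crossed pairing, median centring, quantile normalization, a pseudocount of 16, no variance trend, the mean over probesets, the actin ratio as covariate, no filter (8 genes tested) and a filter at the 60th percentile (5 tested). With 1 array left out the count was 0 to 1, the 1 being FASN without the shallow array of pig 2. Over all probesets the calls were 49 with the block, 0 without it, 202 with the crossed pairing, 0 without a filter, 217 with the stricter filter, 96 after quantile normalization, 100 with the pseudocount, 3 without the trend, 0 with the actin ratio, and 0 to 1597 with 1 array left out. An unadjusted p under 0.05 was seen for FASN with the crossed pairing, the stricter filter, median centring, the pseudocount, the actin ratio and without either array of pig 2, for ELOVL6 with the crossed pairing and without either array of pig 2, for SCD with the actin ratio, and for FADS2 without the trend and without pig 1 deep. The median difference of the 6 genes was -1.17 with the actin ratio, where FASN was -1.79, SCD -1.59, ELOVL6 -1.53 and FADS1 -0.81, and where FADS2 changed sign (-0.57). That ratio was higher on both deep arrays than on either shallow array, so the fit separates it poorly from depth. Each of the 6 genes had an adjusted p of 0.9999 there (limma). The part of RNA quality in these values was not tested. With 1 array left out the median of the 6 genes ran from -0.69 to 0.13, and the SCD difference ran from -0.85 to 0.35. Neither median centring nor quantile normalization turned the direction of any of the 6 tested genes. The fitted values of ACACA (-0.040) and SREBF1 (0.18) also turned sign with the actin ratio, but at signals around or under the absent-transcript controls neither is read as a difference.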
